A study of Homo sapiens with 3 samples.

Results

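Bidirectional promoters of protein-coding gene pairs were examined in H2087 cells, an established line from a human lung adenocarcinoma. A pair was a gene on the minus strand and a gene on the plus strand that point away from each other, with the outer 5′ end of the minus-strand gene upstream of that of the plus-strand gene and at most 1000 bp between these ends in GENCODE 44 on hg19. By this rule 883 pairs were found at 821 loci. They held 1703 of the 20162 protein-coding genes, 62 of them in more than 1 pair, and the other 18459 genes served for comparison. The rule used the annotation alone and no measured value. The distance between the starts had a median of 131 bp (interquartile range 69 to 247, lowest 1, highest 995), and 714 pairs (80.9%) were at most 300 bp apart.

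The study mapped 2 histone modifications by chromatin immunoprecipitation and sequencing (ChIP-seq) in untreated H2087 cells grown in RPMI medium with serum. Histone H3 trimethylated at lysine 4 (H3K4me3) was precipitated with antibody ab8580 and histone H3 acetylated at lysine 27 (H3K27ac) with antibody ab4729, with 1 library for each mark and no replicate of either. A library of input chromatin was also made and was not analysed here. The values are therefore those of 1 library per mark from 1 cell line. Whether both libraries came from 1 culture is not stated. The ranges in brackets after a share are exact Clopper-Pearson 95% intervals. Those after a difference of shares are Newcombe 95% intervals, and both are for counting error only. The peak lists held 18585 H3K4me3 intervals and 24096 H3K27ac intervals, the read depth behind them is unknown, and a promoter without an interval cannot be told from one with too few reads.

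H3K4me3 is laid down at promoters that are engaged by RNA polymerase, above all those rich in CpG dinucleotides, and H3K27ac marks active promoters and enhancers. The stretch just upstream of an active start is usually depleted of nucleosomes, and the marked nucleosomes flank it on both sides. At a head-to-head pair the upstream flank of each gene is also the first part of its partner, so the flanks of 1 depleted stretch lie inside both genes. Such pairs are known to be frequent among housekeeping genes of DNA repair, mitochondria and RNA metabolism, and their promoters are typically CpG islands without a TATA box.

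The DNA between the starts is shown for 7 well known pairs of the set, because this shared stretch is the feature that defines them and because the histone marks lay almost wholly outside it. The sequences are the plus strand of hg19, read from the first base after the minus-strand start to the last base before the plus-strand start. PPAT and PAICS, at chr4:57301782-57301906, encode enzymes of purine synthesis. TMEM258 and FEN1, at chr11:61560275-61560382, encode a subunit of the oligosaccharyltransferase and the flap endonuclease of DNA replication and repair. UFD1 and CDC45, at chr22:19466726-19466979, encode a factor of protein degradation and a part of the replicative helicase. SARS2 and MRPS12, at chr19:39421404-39421583, encode the mitochondrial seryl-tRNA synthetase and a protein of the mitochondrial ribosome. RECQL and GOLT1B, at chr12:21654604-21654714, encode a DNA helicase and a protein of Golgi transport. POLR3K and SNRNP25, at chr16:103609-103827, encode a subunit of RNA polymerase III and a protein of the minor spliceosome. ERCC8 and NDUFAF2, at chr5:60240901-60241003, encode a factor of transcription-coupled repair and an assembly factor of respiratory complex I. Capitals mark matches on either strand to CCGGAAG (the core of ETS family sites), CCAAT (NF-Y) and GGGCGG (Sp1), and to TATAAA (the TATA box).
PPAT/PAICS: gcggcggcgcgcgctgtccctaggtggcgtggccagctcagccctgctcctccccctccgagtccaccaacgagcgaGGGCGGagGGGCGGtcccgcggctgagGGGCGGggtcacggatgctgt
TMEM258/FEN1: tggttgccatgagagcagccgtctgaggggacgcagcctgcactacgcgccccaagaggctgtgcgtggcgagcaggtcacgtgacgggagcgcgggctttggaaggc
UFD1/CDC45: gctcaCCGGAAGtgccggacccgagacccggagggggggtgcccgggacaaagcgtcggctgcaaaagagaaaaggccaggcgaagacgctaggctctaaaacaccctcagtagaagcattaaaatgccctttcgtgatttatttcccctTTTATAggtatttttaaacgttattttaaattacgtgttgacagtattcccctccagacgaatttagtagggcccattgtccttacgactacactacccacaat
SARS2/MRPS12: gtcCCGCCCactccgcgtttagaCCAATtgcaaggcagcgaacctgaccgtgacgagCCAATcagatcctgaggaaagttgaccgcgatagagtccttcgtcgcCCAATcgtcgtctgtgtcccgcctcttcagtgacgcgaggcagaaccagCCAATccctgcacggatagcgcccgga
RECQL/GOLT1B: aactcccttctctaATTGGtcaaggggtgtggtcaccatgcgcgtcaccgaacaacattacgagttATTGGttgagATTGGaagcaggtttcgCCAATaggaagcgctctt
POLR3K/SNRNP25: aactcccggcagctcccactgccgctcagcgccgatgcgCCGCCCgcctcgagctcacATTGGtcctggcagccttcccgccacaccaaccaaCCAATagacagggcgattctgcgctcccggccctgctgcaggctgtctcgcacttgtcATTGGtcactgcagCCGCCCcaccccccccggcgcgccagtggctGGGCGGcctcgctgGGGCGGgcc
ERCC8/NDUFAF2: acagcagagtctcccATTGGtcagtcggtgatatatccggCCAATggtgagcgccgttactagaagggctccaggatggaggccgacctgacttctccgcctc

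PPAT/PAICS held 3 Sp1 matches, SARS2/MRPS12 and RECQL/GOLT1B held 4 NF-Y matches each, and UFD1/CDC45 held an ETS match and a TATA match. TMEM258/FEN1 had no match to any of the 6 motifs searched. A match describes the letters and is not a measured binding site.

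Across all pairs the same motifs were searched in the 300 bases from 250 before to 50 after each start, on both strands. The ETS letters CCGGAAG occurred in 27.5% of the 1703 pair promoters (25.4 to 29.7) and in 10.3% of the 18459 other protein-coding promoters (9.91 to 10.8). NRF1 letters GCATGCGC, of a factor that controls nuclear genes for mitochondria, occurred in 8.81% against 3.30%, and YY1 letters AAGATGGC in 6.34% against 2.71%. GGGCGG occurred in 72.2% against 50.3% and CCAAT in 40.3% against 35.4%. TATAAA went the other way, with 4.99% of the pair promoters and 11.4% of the others. The promoters of a close pair share most of these bases, so a match is often counted for both partners.

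The pair promoters were also richer in CpG. The ratio of observed to expected CpG over the 1 kb centred on the start had a median of 0.781 at pair starts and 0.665 at other starts, and 90.4% of the pair starts had a ratio of at least 0.6 against 56.8% of the others. Other starts with a head-to-head start of a long non-coding RNA within 1 kb were as rich, with 0.809 and 89.1%. Their promoters held GGGCGG in 73.2%, TATAAA in 4.53% and CCGGAAG in 18.8%. Starts of head-to-head pairs with overlapping 5′ ends had a median ratio of 0.756, with 81.8% at 0.6 or more. Among promoters with a ratio of at least 0.6, CCGGAAG occurred in 28.8% of pair promoters and 15.6% of the others, GCATGCGC in 9.36% and 5.01%, and AAGATGGC in 6.50% and 3.71%. GGGCGG came close there, with 75.5% and 72.9%, and so did TATAAA, with 4.87% (3.85 to 6.07) and 5.96%. In the space between the starts, over the 847 pairs with at least 20 bases there, the median G+C content was 66.2% and the median CpG ratio 0.894.

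Most pairs carried H3K4me3. An H3K4me3 interval lay within 1 kb of a start in 595 of 883 pairs (67.4%, 64.2 to 70.5) and an H3K27ac interval in 390 (44.2%, 40.9 to 47.5). Of all protein-coding starts, 38.2% had an H3K4me3 interval within 1 kb on either side and 23.6% an H3K27ac interval. Both marks were found at 349 pairs (39.5%), H3K4me3 without H3K27ac at 246 (27.9%), H3K27ac without H3K4me3 at 41 (4.64%), and neither at 247 (28.0%).

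A pair has an interval near its start for 2 genes at once, so the starts were compared on the gene side. This is the first 1 kb from a start into its own gene, which does not overlap the gene side of the partner. At close pairs most of it lies in the partner's upstream 1 kb, so an interval there may be the upstream flank of the partner. An H3K4me3 interval lay on the gene side at 796 of the 1703 pair starts (46.7%) and at 31.7% of the other starts. This was a difference of 15.1 percentage points (Newcombe 95% interval 12.6 to 17.5). For H3K27ac the shares were 27.4% (467 pair starts) and 17.5%, a difference of 9.95 points (7.81 to 12.2). Over all protein-coding starts the gene-side shares were 32.9% and 18.3%. On the upstream side, which at a pair runs into the partner, the contrast was wider, with H3K4me3 at 45% of pair starts and 13.3% of the others and H3K27ac at 26.2% and 8.80%.

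The 3 sets most like the pairs were scored in the same way. Of the 1413 other starts with a head-to-head start of a long non-coding RNA (lncRNA) within 1 kb, 49.9% had H3K4me3 on the gene side, and the pair starts differed from them by −3.15 points (−6.67 to 0.371). For H3K27ac the difference from this set was −1.38 points (−4.56 to 1.78). Against the 975 starts of head-to-head pairs whose 5′ ends overlap, the pair starts differed by −2.28 points for H3K4me3 (−6.21 to 1.64) and by 0.961 for H3K27ac (−2.57 to 4.40). Starts of head-to-head pairs over 1000 and up to 5000 bp apart, 590 in all, had H3K4me3 less often, at 34.4% (12.3 points below the pair starts, 7.76 to 16.7), and H3K27ac at 22.9% (4.54 points below, 0.426 to 8.41). On the upstream side H3K4me3 was found at 45% of pair starts, 39.5% of starts with overlapping 5′ ends and 23.5% of starts with a lncRNA partner, and H3K27ac at 26.2%, 22.6% and 13.8%. Over both sides together the pair starts had H3K4me3 more often than the lncRNA set by 9.21 points (5.77 to 12.6) and H3K27ac by 7.06 points (3.62 to 10.5).

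**Figure D1:**
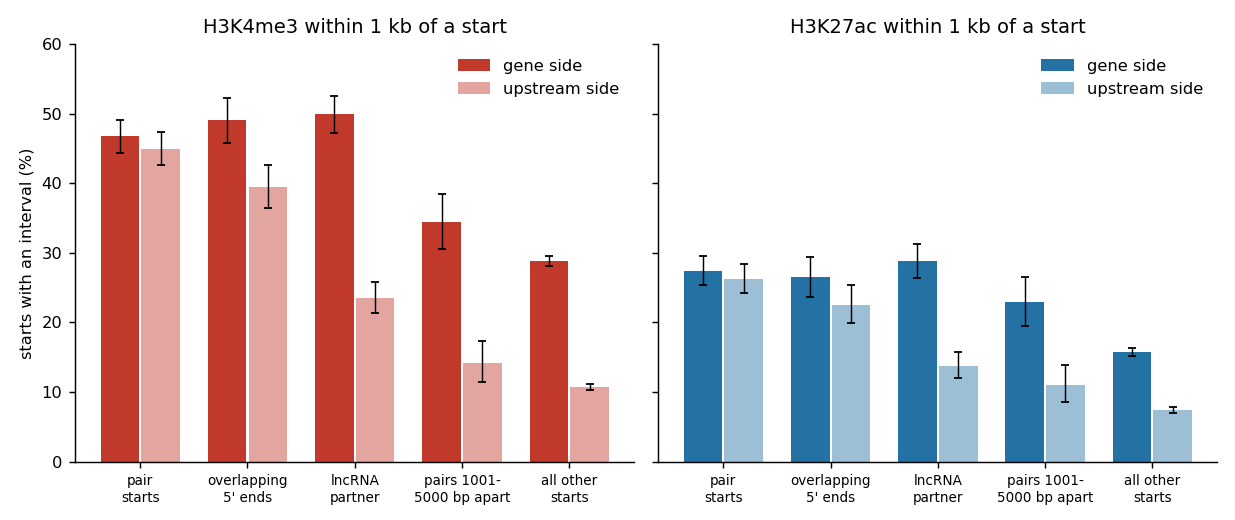
Percentage of starts with an H3K4me3 interval (left) or an H3K27ac interval (right) within 1 kb on the gene side (dark bars) and on the upstream side (pale bars), for pair starts and 4 other sets, with exact 95% intervals for counting error. Gene-side H3K4me3 shares are 46.7% at pair starts, 49% with overlapping 5′ ends and 49.9% with a lncRNA partner, while the upstream share is 45% at pair starts and 23.5% with a lncRNA partner.

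Within classes of CpG content the difference from other starts was smaller in the CpG-rich classes, which held most pair starts, than in the class of 0.4 to 0.6. With a CpG ratio of 0.6 to 0.8, H3K4me3 lay on the gene side of 47.6% of 797 pair starts and 45.4% of 5448 others, a difference of 2.20 points (−1.50 to 5.91). With a ratio of 0.8 or more the shares were 50.7% of 742 and 51.4% of 5037 (−0.726 points, −4.57 to 3.12). H3K27ac differed by 2.15 points (−0.994 to 5.49) and 4.26 points (0.821 to 7.88) in these classes. In the 0.4 to 0.6 class, which held 109 pair starts, the pair starts were higher by 10.9 points for H3K4me3 (2.41 to 20.4) and 12.9 points for H3K27ac (5.36 to 22.0). Under 0.4, 5.45% of 55 pair starts and 4.71% of 5841 others had H3K4me3. Whether CpG content accounts for the difference over all starts was not tested.

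**Figure D2:**
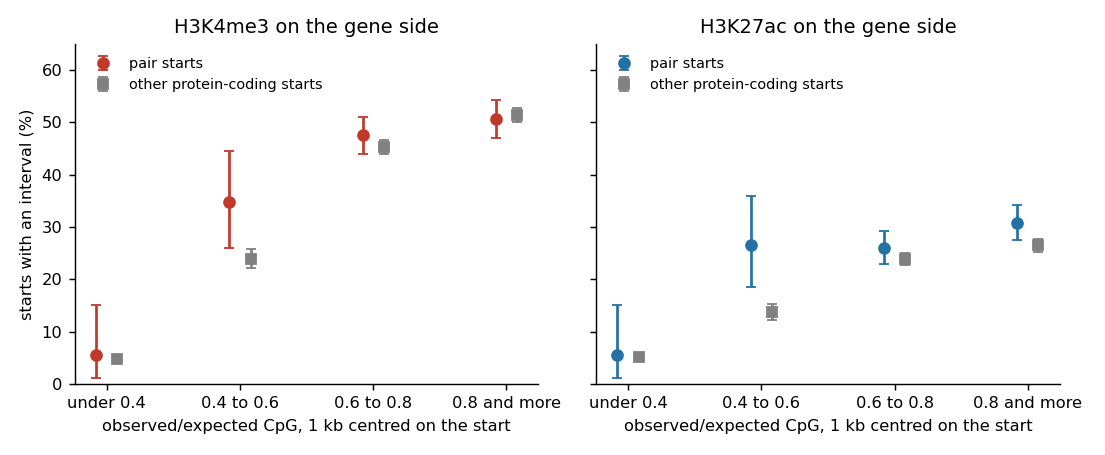
Percentage of starts with a gene-side interval of H3K4me3 (left) or H3K27ac (right) against the class of observed to expected CpG, for pair starts (coloured circles) and other protein-coding starts (grey squares), with exact 95% intervals. For H3K4me3 both kinds of start rise with CpG content, and they lie within 2.20 points of each other in the 0.6 to 0.8 class. For H3K27ac the other starts rise, while pair starts have 26.6% in the 0.4 to 0.6 class and 26.0% in the 0.6 to 0.8 class.

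Around pair starts the marks formed a nearly symmetric pattern with a gap at the starts. H3K4me3 intervals covered the largest share of pair starts at 350 bp inside the gene, 27.5%, and a second crest of 25.4% stood 575 bp upstream, inside the partner. The upstream crest was 0.923 of the downstream one. At other protein-coding starts the crests were 17.0% and 6.20%, a ratio of 0.364, and at starts with a lncRNA partner 30.5% and 12.6%, a ratio of 0.413. H3K27ac showed the same shape at pair starts, with 14.6% at 325 bp downstream and 12.4% at 550 bp upstream, a ratio of 0.851. Coverage at pair starts fell to 2.58% for H3K4me3 and 1.12% for H3K27ac at 50 bp upstream. The gap was not particular to the pairs. The lowest coverage was 3.05% and 1.38% at other protein-coding starts, and 1.84% and 0.849% at starts with a lncRNA partner. Because the rule places a start of the partner within 1 kb upstream, the upstream crest is in large part the partner's own gene side.

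**Figure D3:**
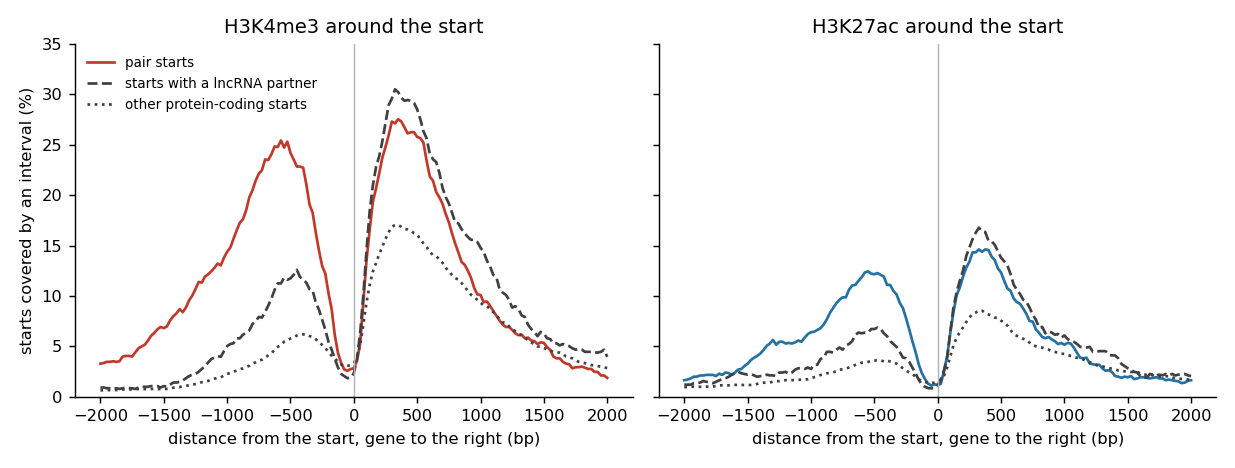
Percentage of starts covered by an H3K4me3 interval (left) or an H3K27ac interval (right) against distance from the start in bp, with the gene to the right, in steps of 25 bp. Pair starts (coloured line) have crests of 27.5% and 25.4% for H3K4me3 on the 2 sides of a gap of 2.58%. The other starts (dotted line) have 17.0% and 6.20% on the 2 sides of a gap of 3.05%.

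The stretch between the starts was nearly free of intervals. An H3K4me3 interval touched it in 42 pairs (4.76%) and an H3K27ac interval in 23 (2.60%). These shares grew with the room available, from 2.33% of the pairs up to 100 bp apart to 23.7% of those over 500 bp apart for H3K4me3. Among the gene-side intervals, 6.03% of the marked pair starts had the start itself under an H3K4me3 interval, compared with 10.6% of the other marked starts. For H3K27ac these shares were 4.28% and 8.56%. The nearest edge of the H3K4me3 interval lay a median of 204 bp inside the pair gene (interquartile range 88 to 410). The intervals were otherwise alike in size and strength, with a median width of 360 bp and a median −log10 q of 3.65 at pair starts and 381 bp and 3.64 at other starts. The −log10 q is the score of the peak caller within its own list.

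More pairs were marked on 1 side than on both. H3K4me3 lay on both gene sides of 236 pairs (26.7% of 883) and on 1 gene side of 358 (40.5%), of which 177 had it on the minus-strand gene and 181 on the plus-strand gene. H3K27ac lay on both gene sides of 100 pairs (11.3%) and on 1 of 286, of which 136 had it on the minus-strand gene and 150 on the plus-strand gene. Among the pairs with the mark on a gene side, both sides had it in 39.7% for H3K4me3 (35.8 to 43.8) and in 25.9% for H3K27ac (21.6 to 30.6). Both marks on both sides occurred at 55 pairs (6.23%).

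The sides of a pair tended to be marked together. The plus-strand gene had H3K4me3 in 57.1% of the pairs whose minus-strand gene had it (52.2 to 62.0) and in 38.5% of those whose minus-strand gene did not (34.1 to 43.1). For H3K27ac these shares were 42.4% (36 to 49) and 23.2% (19.98 to 26.6). The difference was also present among the 775 pairs with a CpG ratio of at least 0.6 at both starts, with 58.4% and 41.5% for H3K4me3 and 41.5% and 23.8% for H3K27ac. Per start, the upstream side had H3K4me3 in 55.4% of pair starts with a marked gene side and 35.8% of those without. At other protein-coding starts these shares were 29.4% and 5.85%, and with a lncRNA partner 33.6% and 13.4%. For H3K27ac they were 40.7% and 20.8% at pair starts and 25.4% and 5.27% at other protein-coding starts. Joint marking was thus not particular to the pairs.

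The marks mostly lay on the same side. In the 141 pairs with each mark on 1 gene side, it was the same side in 108 (76.6%, 68.7 to 83.3). H3K27ac lay on both gene sides in 23.3% of the 236 pairs with H3K4me3 on both, in 10.9% of the 358 with H3K4me3 on 1 side, and in 2.08% of the 288 without an H3K4me3 interval. Pairs without H3K4me3 had no H3K27ac in 85.8%.

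The marked side of a 1-sided pair was more often the one richer in G+C. Over the 358 pairs with H3K4me3 on 1 gene side, the first 1 kb of the marked gene had the higher G+C content in 252 (70.4%, 65.4 to 75.1), with medians of 57.6% on the marked and 52.2% on the unmarked side. The CpG ratio was higher on the marked side in 218 (60.9%, 55.6 to 66.0). The longer gene was the marked one in 171 (47.8%, 42.5 to 53.1), close to an even split. For the 286 pairs with H3K27ac on 1 side, the marked side had the higher G+C content in 182 (63.6%, 57.8 to 69.2) and the higher CpG ratio in 153 (53.5%, 47.5 to 59.4), and the marked gene was the longer one in 124 (43.4%, 37.5 to 49.3).

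When both sides carried a mark, the intervals were usually separate. Of the 236 pairs with H3K4me3 on both gene sides, 223 (94.5%, 90.8 to 97.0) had a separate interval for each gene, and the facing edges were a median of 720 bp apart (interquartile range 472 to 1009). In the other 13 an interval ran across both starts. Their starts were closer, with a median spacing of 53 bp against 141 bp. The weaker side had a median −log10 q of 2.93 and the stronger side 5.02, and the stronger side was the minus-strand gene in 103 pairs and the plus-strand gene in 117. H3K27ac was separate in 95 of 100 pairs, with facing edges a median of 755 bp apart.

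The share of marked pairs varied little with the distance between the starts up to 500 bp. H3K4me3 was found at 66.2% of the 343 pairs up to 100 bp apart, 68.8% of the 253 above that and up to 200 bp, 74.6% of the 118 up to 300 bp, 63.4% of the 93 up to 500 bp and 61.8% of the 76 up to 1000 bp. H3K27ac went from 41.4% in the closest class to 59.2% in the widest, where the stretch scored is also longest. H3K4me3 on both gene sides was found at 25.4% in the closest class and 31.6% in the widest. At the limit of the rule, 22 of 30 pairs over 800 and up to 1000 bp apart (73.3%) and 10 of 15 pairs over 1000 and up to 1200 bp apart (66.7%) had H3K4me3, and 19 of 30 (63.3%) and 10 of 15 (66.7%) had H3K27ac. H3K4me3 on both gene sides was found at 8 of these 30 pairs inside the limit (26.7%, 12.3 to 45.9). It was found at 5 of the 15 just outside it (33.3%, 11.8 to 61.6). These pairs are too few to show whether the share drops at the limit itself. Over the wider classes beyond it, H3K4me3 lay on both gene sides at 12.2% of the 82 pairs up to 2000 bp apart and 15.1% of the 238 pairs up to 5000 bp apart.

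**Figure D4:**
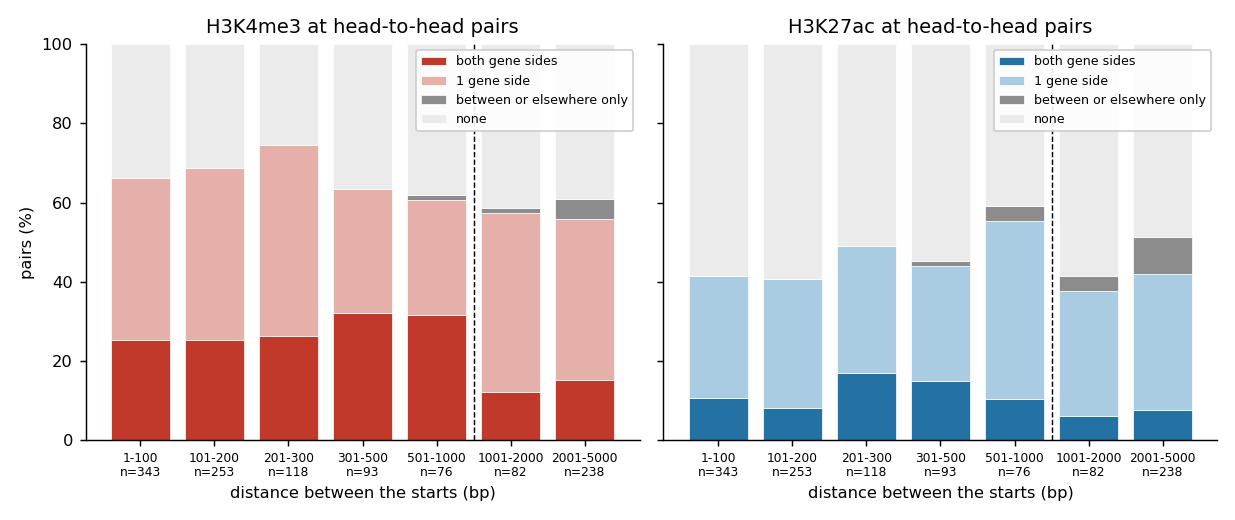
Percentage of head-to-head pairs with H3K4me3 (left) or H3K27ac (right) on both gene sides, on 1 gene side, between the starts only, or with no interval, in classes of the distance between the starts, with the 1000 bp limit of the rule as a dashed line and the number of pairs under each bar. In pairs over 2000 bp apart, between can mean over 1 kb from both starts. H3K4me3 on both gene sides is at 31.6% in the last class before the dashed line and 12.2% in the first class after it, and at 26.7% and 33.3% of the 30 and 15 pairs within 200 bp of the line.

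Among textbook head-to-head pairs, 18 of the 50 looked up met the rule on these annotated ends. H3K4me3 was found at 14 of them and H3K27ac at 8. PPAT/PAICS, COL4A6/COL4A5 (collagen IV chains) and LRRC40/SRSF11 (SRSF11 is a splicing factor) were among those with neither mark. NPAT, a coactivator of histone genes, and ATM, the kinase of the double-strand break response, had an H3K4me3 interval each, at chr11:108092546-108093174 (−log10 q 3.34) and chr11:108094668-108095125 (3.48), 191 and 897 bp inside the genes, and no H3K27ac. FEN1 had its interval 430 bp inside the gene at −log10 q 5.14, and that of TMEM258 lay 962 bp inside at 3.54, so this pair counted as marked on both sides by a small margin.

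PRKDC, the catalytic subunit of DNA-dependent protein kinase, and MCM4, a subunit of the replicative helicase, start 7 bp apart. Their H3K4me3 intervals had a −log10 q of 10.6 on the PRKDC side and 3.56 on the MCM4 side, and H3K27ac was found on the PRKDC side alone at 1.66. PDCD10, which is mutated in cerebral cavernous malformation, carried H3K4me3 (4.60) and H3K27ac (7.83), and its partner SERPINI1, encoding neuroserpin, carried H3K4me3 alone (3.16). In both pairs the partners thus had H3K4me3 in common, and H3K27ac lay on 1 of them.

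In the other 10 known pairs with H3K4me3 it lay on 1 gene side and did not reach the other. UFD1/CDC45 had it on the CDC45 side (−log10 q 3.76), SARS2/MRPS12 on the MRPS12 side (2.49), and RECQL/GOLT1B on the GOLT1B side (2.97), and none of these had H3K27ac. POLR3K/SNRNP25 and ERCC8/NDUFAF2 had both marks on the plus-strand gene, with H3K4me3 at 1.55 and 4.54 and H3K27ac at 3.55 and 4.32. PREPL, a serine peptidase, had both marks at 6.22 and 1.64, and its partner CAMKMT neither. For MED20/BYSL the marks lay on opposite genes, H3K4me3 (2.97) on the Mediator subunit MED20 and H3K27ac (1.39) on BYSL, a factor of ribosome assembly.

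The collagen IV pair COL4A4/COL4A3 differed in shape from the other known pairs. An H3K27ac interval of 457 bp at chr2:228029013-228029469 (−log10 q 2.67) ran across both starts, and H3K4me3 (2.92) lay 293 bp inside COL4A4.

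**Figure D5:**
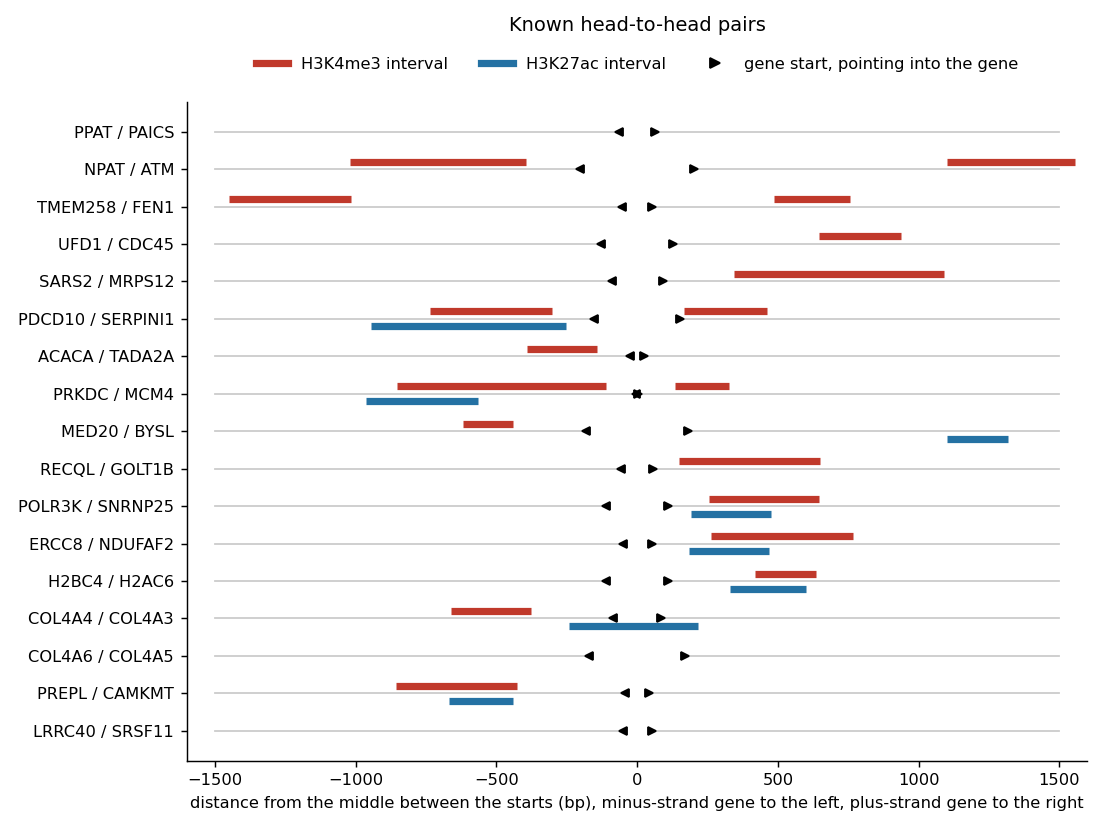
Intervals of H3K4me3 (red, above each line) and H3K27ac (blue, below) at 17 of the 18 known head-to-head pairs, against distance in bp from the middle between the starts, with arrowheads at the starts. The space between the arrowheads is free of intervals in every pair shown but COL4A4/COL4A3, where 1 H3K27ac interval of 457 bp covers both starts.

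The highest scores among pairs marked on both sides stood far above the median of these pairs. METTL1, a tRNA methyltransferase, and a gene listed as ENSG00000257921 had H3K4me3 at −log10 q 21.2 and 28.7 and H3K27ac at 5.69 and 15.7. The score can depend on local copy number, which was not measured here. DHX57 and MORN2, which came after ARFRP1/ENSG00000273154 and TRADD/FBXL8 by the weaker side, had separate H3K4me3 intervals at 7.81 and 11.9, and TFB2M, a mitochondrial transcription factor, and CNST had them at 7.72 and 8.78, and neither pair had H3K27ac. An H3K4me3 interval ran across both starts at ARFRP1/ENSG00000273154 (2946 bp, −log10 q 12.7), MRPL21/IGHMBP2 (1068 bp, 6.48), MEX3A/LMNA (1066 bp, 4.59; LMNA encodes lamin A and C) and TRADD/FBXL8 (631 bp, 7.84; TRADD is an adaptor of TNF receptor signalling).

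The H3K27ac interval across both starts with the highest score lay where H3K4me3 was missing. H3K4me3 was present at AREL1/FCF1, PPP2R3C/ENSG00000258790 and COL4A4/COL4A3, which also had an H3K27ac interval across both starts. The promoter shared by RFXANK, a regulator of MHC class II genes, and MEF2B had an H3K27ac interval of 599 bp (−log10 q 6.52) and no H3K4me3 interval, and the readthrough gene BORCS8-MEF2B forms a further pair over the same interval. AREL1/FCF1 had 1 H3K27ac interval of 680 bp (5.92) between separate H3K4me3 intervals (3.80 and 2.29). The widest such interval, 747 bp at 4.17, lay at PPP2R3C/ENSG00000258790. ATP5MK, of the mitochondrial ATP synthase, and PDCD11, a factor of ribosomal RNA processing, had separate H3K27ac intervals at 4.29 and 4.21.

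Some genes with a high H3K4me3 score had a partner without H3K4me3. The highest H3K4me3 scores on 1 side with none on the other were 11.3 at RSPRY1 (partner PSME3IP1, 21 bp away), 10.5 at LRRC14 (partner RECQL4, 147 bp), 10.4 at SURF4 (partner STKLD1, 200 bp), 9.76 at ZNF697 (partner PHGDH, the first enzyme of serine synthesis, 145 bp) and 9.53 at NDUFB5 (partner MRPL47, 41 bp). PSME3IP1 nevertheless had H3K27ac (3.17), as did RSPRY1 (6.66). At the ends of the spacing range, NEK1/CLCN3 (1 bp) and MS4A6A/MS4A4A (991 bp) had no interval, NOXO1/GFER (1 bp) had H3K27ac on GFER alone (2.82), and CHMP1A/SPATA33 (2 bp) had H3K4me3 on both genes (6.47 and 6.30). PSMB1/TBP (995 bp) had H3K4me3 on TBP, the TATA-binding protein (2.97), and H3K27ac on the proteasome subunit PSMB1 (4.32).

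The pairs held many housekeeping genes, and these did not all carry the marks. Of 169 genes of DNA repair and replication, 51 (30.2%) were in pairs, against 8.45% of all protein-coding genes, 34 of 508 zinc finger (ZNF) genes (6.69%) and none of 149 keratins and keratin-associated proteins. H3K4me3 was found at 31 of the 50 repair and replication pairs and H3K27ac at 23, near the shares of all pairs. H3K4me3 lay on both sides in 14, among them TIPIN/MAP2K1, POLE/PXMP2, PMS2/AIMP2 and NTHL1/TSC2, and NTHL1/TSC2 (a base excision repair glycosylase and the tuberous sclerosis protein tuberin) also had H3K27ac on both. TP53BP1/MAP1A, with a mediator of the damage response, had neither mark.

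Genes of cytosolic ribosomal proteins in pairs mostly carried H3K4me3. Of 86 such genes 11 (12.8%) were members, and H3K4me3 lay on the ribosomal gene's own side in 10 and H3K27ac in 8. Of the 75 ribosomal protein genes outside pairs, 39 had H3K4me3 there and 31 had H3K27ac. Other lists differed in direction. Own-side H3K4me3 was at 44.4% of mitochondrial ribosomal protein genes in pairs and 57.8% of those outside. For proteasome genes these shares were 33.3% and 52.4%, for chaperones 64.3% and 50.9%, and for translation initiation factors 62.5% in both groups. MED22/RPL7A, PIDD1/RPLP2 and RPS16/SUPT5H had both marks on both sides, while RPS25/TRAPPC4 had H3K4me3 on both and no H3K27ac, and BTK/RPL36A had neither. Of 124 genes of oxidative phosphorylation and its assembly, 31 (25%) were members, in 32 pairs, with H3K4me3 at 21 (65.6%) and H3K27ac at 14 (43.8%), near the 67.4% and 44.2% of all pairs. H3K27ac lay on both sides in 7 of those pairs, including LRRC41/UQCRH, NDUFB1/CPSF2 and ATP5MK/PDCD11.

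Replication-dependent histone genes had the highest share of members, 23 of 64 (35.9%), and a low share of marks. All 12 of their pairs joined histone genes to each other, and 3 had H3K4me3 and 2 H3K27ac. The share was also low outside pairs. H3K4me3 lay on the own side of 5 of the 23 members and 3 of the 41 other histone genes, and H3K27ac of 2 and 1. H2BC21/H2AC20 and H2AC15/H2BC15 had H3K4me3 on both genes, and H2BC4/H2AC6 had both marks on H2AC6 (4.60 and 1.55). Histone genes are short and near-identical copies share reads, so missing intervals there are uncertain.

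The remaining lists held fewer pairs each, apart from the ZNF genes. H3K4me3 and H3K27ac were found at 12 and 6 of the 19 pairs with a mitochondrial ribosomal protein, 11 and 4 of the 14 with a chaperone, 6 and 6 of the 9 with an RNA polymerase subunit, 6 and 3 of the 8 with a translation initiation factor, and 5 and 2 of the 6 with a proteasome subunit or assembly chaperone. ZNF genes had 17 and 11 of 30 pairs. Of the 3 pairs with an aminoacyl-tRNA synthetase 1 had H3K4me3 and 0 had H3K27ac, and of the 2 collagen pairs 1 had each mark. Of all 883 pairs, 67.4% had H3K4me3 and 44.2% H3K27ac. A mark of a pair can lie on the partner alone. H3K4me3 lay on the listed gene's own side in 8 of 18 mitochondrial ribosomal and 9 of 14 chaperone members. It did so in 4 of 9 RNA polymerase, 5 of 8 initiation factor, 2 of 6 proteasome and 13 of 34 ZNF members.

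The marks were also counted at pair promoters with and without each motif. Pair promoters with CCGGAAG had H3K4me3 on the gene side in 50.5% (45.9 to 55.1) and those without in 45.3% (42.5 to 48.1). With and without GGGCGG the shares were 49.8% and 38.7% for H3K4me3 and 29.1% and 23% for H3K27ac. For TATAAA they were 40.0% and 47.1%, and for CCAAT 47.2% and 46.5%, for H3K4me3. For H3K27ac they were 22.4% and 27.7% with and without TATAAA and 26.6% and 28.0% with and without CCAAT.

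Marked pairs were unevenly spread over the chromosomes. On chromosome X 1 of 24 pairs had H3K4me3 (4.17%, 0.105 to 21.1) and none had H3K27ac, and on chromosome 18 1 of 9 pairs had each mark. On chromosome 6, 25 of 58 pairs had H3K4me3 (43.1%), and on chromosome 5 29 of 33 (87.9%). On chromosome 11, 57 of 71 had H3K4me3, 38 of them on both gene sides. No shares of other starts by chromosome are given here, so a trait of the pairs cannot be told from one of the whole chromosome. Without chromosomes 18, X and Y the gene-side difference from other starts was 15.0 points for H3K4me3 and 9.93 for H3K27ac. Copy number in H2087 was not measured here.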

How the data were processed

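According to the submitters' processing notes, reads were handled with bcl2fastq 1.8.4, Bowtie 1.1.1, SAMtools 1.2, Picard 1.118, MACS2 2.1.0 and ChIPseeker 1.6.6 on hg19. The threshold and calling mode are not given in the sources used here. The study's methods say that input chromatin was kept for normalization, but not whether the peak caller used it. The deposited lists give an interval for each summit and, in the last column, a value without a header. It was read as the −log10 q-value set by the authors' peak caller, from the numbers: it is never negative and starts just above the value for a q of 0.05. It depends on depth, can depend on copy number, and was compared only within a list.

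The 20282 H3K4me3 and 25275 H3K27ac entries were merged into distinct intervals with their highest value. Gene starts were the outer 5′ ends of protein-coding genes in GENCODE 44. An interval counted for a side when at least 1 base lay within 1 kb of the start. Shares have Clopper-Pearson and differences Newcombe 95% intervals (SciPy 1.17.1, statsmodels 0.14.6, pandas 2.3.3). With 1 library per mark, starts are not replicates and no p-value is given. Scoring was tested on simulated intervals. The members, gene lists and motifs were chosen with earlier results of these data known.

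Named pairs were the known pairs that met the rule, the 5 with the highest −log10 q on the weaker side of pairs marked on both sides (each mark), the 5 strongest 1-sided H3K4me3 pairs, the 3 widest intervals of each mark across both starts, and the 3 shortest and 3 longest spacings. CAPN1 and GLRX3 would also have been named but are not members, and 1 known pair that met the rule is counted but not reported here by name. Pairs named from the functional lists were picked after their values were seen, and genes caught by the proteasome name pattern that are not subunits were removed then. Sequences were read from the GRCh37 assembly, the same build as hg19. The alternatives tried were other distances, spacings, starts, chromosomes and score thresholds, and, added after the data had been examined, 1 pair per locus.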

Additional observations from a re-analysis of the deposited data

How the results depend on the processing

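Each mark had 1 library, so no replicate could be left out and no samples could be paired. The 6 main results were recomputed under 10 alternatives, 60 values in all, of which 40 stayed within the counting interval of the main value, 20 moved further and 0 changed sign. Within 500 bp of a start, H3K4me3 was found at 58.8% and H3K27ac at 36.8% of pairs, and both gene sides were marked in 29.7% and 19.0% of the pairs marked on a side. Within 2 kb, H3K27ac was found at 48.2% of pairs. For intervals at or above the median score of a list, H3K4me3 was found at 50.7% and H3K27ac at 29.2% of pairs, the gene-side difference from other starts was 10.4 and 5.80 points, and both sides were marked in 26.5% and 14.9%. With a −log10 q of at least 5 these values were 22.0%, 6.12%, 4.12 points, 0.618 points (−0.168 to 1.60), 14.5% and 7.41%. So the difference for H3K27ac was not detectable among the strongest intervals. With interval centres, both sides had H3K4me3 in 34.5%. With canonical transcript starts, which gave 978 pairs, H3K4me3 was found at 73.8% of pairs and the difference was 18 points. Spacing limits of 500 bp or 2 kb, leaving out chromosomes 18, X and Y, and 1 pair per locus moved none of the 6 results further than the counting interval. The depth of each library is unknown, and these shares depend on it and on the threshold of the peak caller.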
